A study of Mus musculus with 4 samples.

Results

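The genes described here mark the liver sinusoidal endothelium, the lining of the capillary-like vessels that carry blood past hepatocytes. They are 32 of the 50584 gene symbols counted, chosen by name as genes used to recognise these cells or that carry out their known functions. Their levels were compared between livers of DBA/2J and C57BL/6J mice, both inbred laboratory strains, in a series about the Mlycd gene of DBA/2J. All mice were males of 14 weeks, labelled wild type and kept on chow. The series' design speaks of 2 mice of each strain, and 1 poly(A) RNA library was counted for each mouse. All 32 genes passed the filter on low counts, with 47 to 3778 reads per gene and library. RNA came from whole liver, so fewer endothelial cells and less RNA per endothelial cell cannot be told apart.

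Sinusoidal endothelial cells have open pores and no continuous basement membrane, and they clear waste molecules from the blood through scavenger receptors. They respond to vascular endothelial growth factor (VEGF) and to angiopoietins. They also release signals to their neighbours: Bmp2 and Bmp6 tell hepatocytes to make hepcidin, the hormone that limits iron uptake, and Wnt2, Wnt9b and Rspo3 drive the gene programme of hepatocytes around the central vein. Some of the 32 genes are not limited to this cell type. Examples are Mrc1 and Fcgr2b, also known from macrophages, Nrp1 and Gata4, from stellate cells, and Aqp1, from bile duct cells. Whether other cells add to the level of a gene, Lyve1 among them, was not tested.

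Promoter sequences are shown for 4 of the 5 genes that differed between the strains, and for Tek and Stab1, which belong to the same receptor families as Tie1 and Stab2 and did not pass the test. Each is the stretch of 250 bases just before the RefSeq transcription start (GRCm38.p6), on the gene's own strand. These are reference sequences and not those of the DBA/2J animals. Capitals mark the letters AGGAAG or their reverse complement CTTCCT, a core bound by ETS factors, the transcription factor family that includes the endothelial regulators Erg and Fli1.
Tie1 (chr4:118489850-118490099, reverse strand): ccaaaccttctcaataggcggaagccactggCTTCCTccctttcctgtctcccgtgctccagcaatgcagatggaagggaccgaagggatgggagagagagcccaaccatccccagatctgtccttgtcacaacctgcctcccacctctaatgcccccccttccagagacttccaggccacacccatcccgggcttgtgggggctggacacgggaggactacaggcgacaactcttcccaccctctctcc
Tek (chr4:94739039-94739288, forward strand): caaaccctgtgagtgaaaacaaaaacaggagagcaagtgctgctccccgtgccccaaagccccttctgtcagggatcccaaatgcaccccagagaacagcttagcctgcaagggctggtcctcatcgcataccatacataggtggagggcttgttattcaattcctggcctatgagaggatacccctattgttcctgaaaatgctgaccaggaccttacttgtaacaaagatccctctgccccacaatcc
Stab2 (chr10:87007943-87008192, reverse strand): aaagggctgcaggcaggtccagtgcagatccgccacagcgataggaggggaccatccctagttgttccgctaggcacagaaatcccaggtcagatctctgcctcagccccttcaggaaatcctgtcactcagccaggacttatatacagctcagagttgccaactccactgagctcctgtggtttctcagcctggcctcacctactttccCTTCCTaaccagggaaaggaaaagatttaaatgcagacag
Stab1 (chr14:31168642-31168891, reverse strand): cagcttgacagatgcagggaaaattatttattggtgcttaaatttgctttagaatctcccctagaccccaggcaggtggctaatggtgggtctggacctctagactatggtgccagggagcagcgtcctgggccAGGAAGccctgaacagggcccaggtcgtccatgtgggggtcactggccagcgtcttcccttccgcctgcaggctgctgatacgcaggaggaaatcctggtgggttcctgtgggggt
Wnt9b (chr11:103749822-103750071, reverse strand): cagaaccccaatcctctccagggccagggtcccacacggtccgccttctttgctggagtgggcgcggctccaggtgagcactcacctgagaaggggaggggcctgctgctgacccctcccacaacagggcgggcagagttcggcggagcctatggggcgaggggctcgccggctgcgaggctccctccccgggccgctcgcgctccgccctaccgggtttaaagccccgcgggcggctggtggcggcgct
Nrp1 (chr8:128358823-128359072, forward strand): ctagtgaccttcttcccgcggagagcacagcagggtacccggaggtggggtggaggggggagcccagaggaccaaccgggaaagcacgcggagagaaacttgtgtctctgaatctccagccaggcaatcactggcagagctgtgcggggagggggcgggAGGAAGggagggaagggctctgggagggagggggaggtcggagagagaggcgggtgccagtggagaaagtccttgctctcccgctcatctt
AGGAAG, read on both strands, was present once before Tie1, Nrp1, Stab2 and Stab1, and was not found in the windows of Tek and Wnt9b. Of the 32 genes, 20 had an entry in the promoter table, with 22 starts, and 12 of these starts (54.5%) held the letters, against 29.5% of 32851 promoters of all genes. The GATA core AGATAA or its reverse complement TTATCT was in 0 of the 22, against 9.99% of all promoters. The SOX core ACAAAG or CTTTGT was in 3 of 22 (13.6%, against 16.5% of all). The window of Tek held 1 such SOX core.

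Levels are given as CPM, the usual read count scaled to equal library size, with a correction for library composition. Total counts ran from 48096706 to 52520737 per library, and the 32 genes together took 0.0602% to 0.0869% of them. Over all genes tested, 2842 of 15647 differed between the strains at an adjusted p below 0.05 in edgeR's quasi-likelihood test, which is 18.2% (9.29% higher and 8.87% lower in DBA/2J). Scaling by library totals alone changed the split of these calls from 1454 higher and 1388 lower to 1924 and 1024. The number of calls fell to 292 and 313 when DBA/2J replicate 1 or 2 was left out, and rose to 3926 and 4904 when C57BL/6J replicate 1 or 2 was.

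Of the 32 sinusoidal endothelial genes, 3 were higher in DBA/2J (Tie1, Wnt9b and Stab2) and 2 were lower (Lyve1 and Nrp1). These 5 genes are 15.6% of the list, near the 18.2% called among all genes tested. The other 27 did not pass the test. The median log2 difference of the list was 0.22, against 0.0077 over all genes tested, and 26 of 32 values (81.2%) were positive, against 50.7% of all genes. The libraries of the strains did not overlap for 11 genes, 9 with DBA/2J above and 2 with it below. That is 34.4% of the list, against 63.8% of all genes tested. Omitting 1 library at a time, the median of the list ranged from 0.059 to 0.40. The plot of CPM by gene shows each library's value, and the plot of log2 differences shows the strain comparison.

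**Figure D1:**
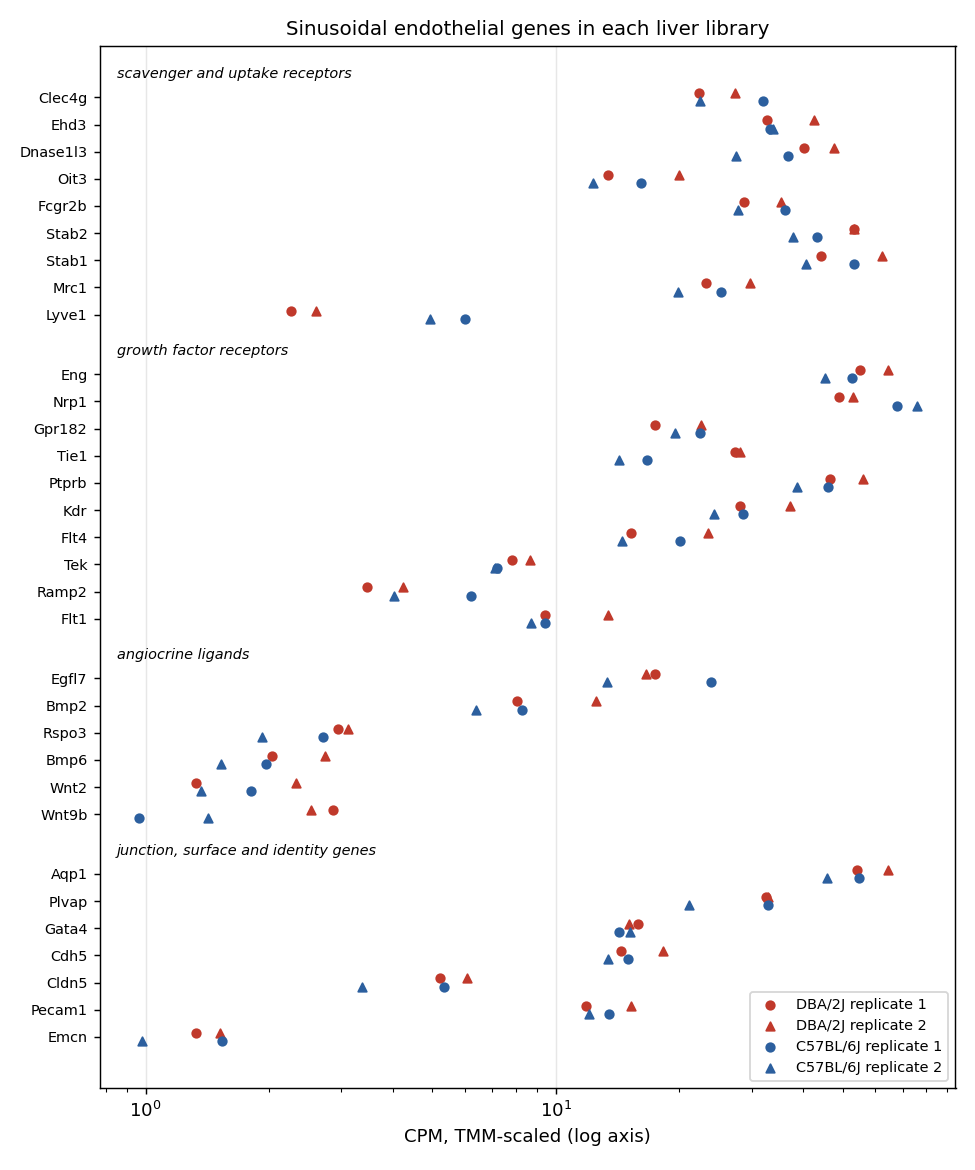
CPM (log axis) of the 32 sinusoidal endothelial genes in the 4 liver libraries, grouped by role and ordered by level per kilobase within a group. Red symbols are DBA/2J and blue symbols C57BL/6J; circles are replicate 1 and triangles replicate 2. Lyve1 and Nrp1 have both DBA/2J libraries below both C57BL/6J libraries, and Tie1, Wnt9b and Stab2 have them above. Dnase1l3, Bmp6, Tek, Eng, Ptprb and Rspo3 also have them above, but did not pass the test.

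**Figure D2:**
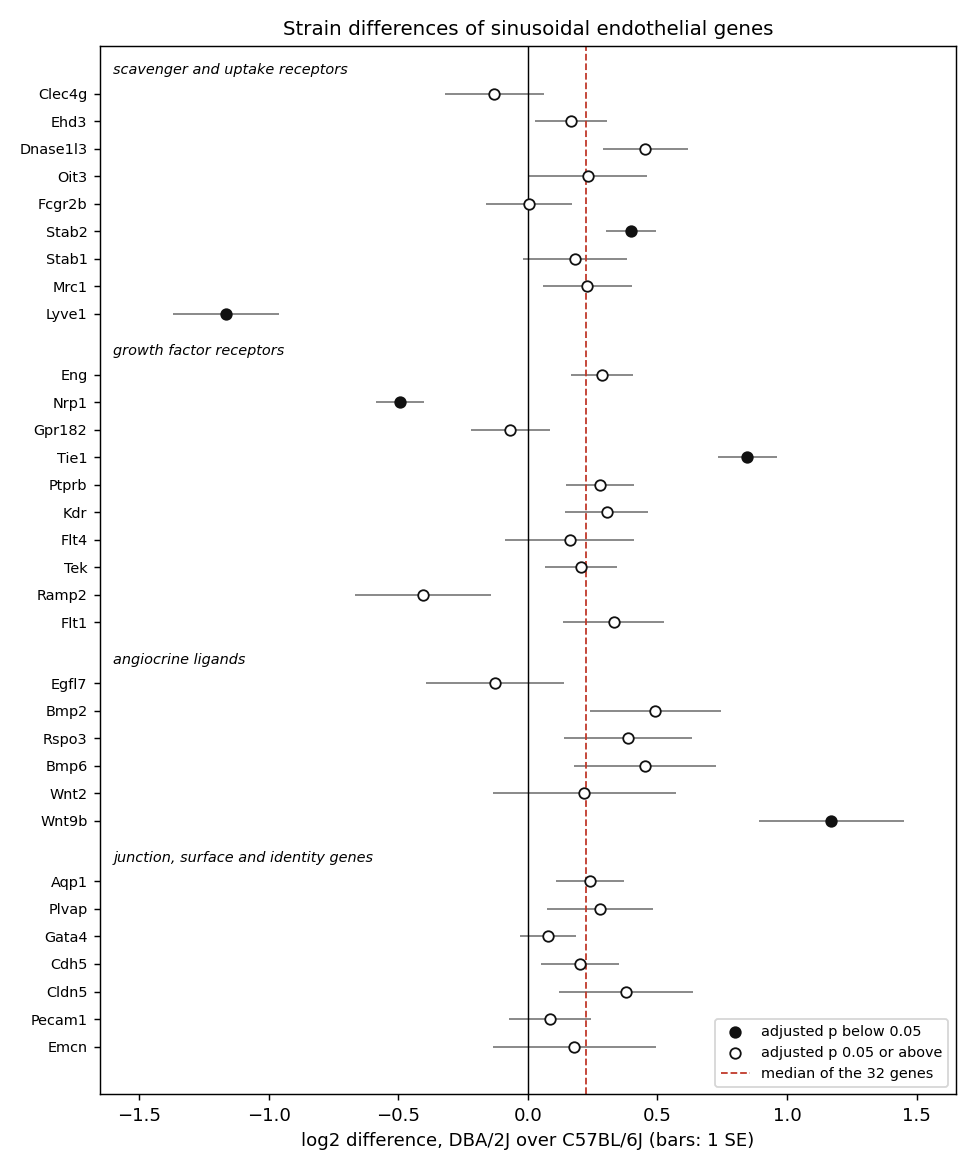
Log2 difference of DBA/2J over C57BL/6J for each of the 32 genes, with bars of 1 standard error from edgeR; n = 2 libraries per strain. Filled points passed an adjusted p of 0.05, and the dashed line is the median of the 32 genes, 0.22. The 5 filled points are Lyve1, Nrp1, Stab2, Tie1 and Wnt9b.

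The scavenger and uptake group held 9 genes, of which Stab2 was higher, Lyve1 lower and 7 not called. Lyve1 encodes a hyaluronan-binding receptor of sinusoidal and lymphatic endothelium, and lies on chromosome 7 at 110850607 to 110863239 (GRCm38, reverse strand). It stood at 2.26 and 2.60 CPM in DBA/2J and 5.99 and 4.93 CPM in C57BL/6J. Both DBA/2J livers were therefore near the same low level, and neither reached the lower of the C57BL/6J livers. The means were 2.43 CPM ± 0.243 (SD, n = 2) and 5.46 CPM ± 0.751 (SD, n = 2). The log2 difference was -1.16 ± 0.20 (SE), 2.24-fold lower in DBA/2J, with an edgeR adjusted p of 0.0177.

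Stab1 and Stab2 encode the stabilins, large scavenger receptors that take hyaluronan and other waste products from blood. Stab2 (chromosome 10, 86841198 to 87008025, reverse strand) stood at 53.3 CPM in both DBA/2J libraries and at 43.2 and 37.7 CPM in C57BL/6J. The log2 difference was 0.40 ± 0.10 (SE), 1.32-fold, with an edgeR adjusted p of 0.042. Stab2 lost its call when a trend of the counts with exon length was removed (log2 0.27, adjusted p = 0.122) and when low-count genes were kept (adjusted p = 0.0967). Stab1 did not separate the strains: it stood at 44.4 and 62.3 CPM in DBA/2J and 53.4 and 40.7 CPM in C57BL/6J (log2 0.18, edgeR adjusted p = 0.564). Per kilobase of exon the stabilins were at like levels, with a mean over the 4 libraries of 5.35 CPM per kilobase for Stab2 and 4.88 for Stab1.

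The remaining uptake genes had log2 differences from -0.13 for Clec4g, a C-type lectin of the sinusoid, to 0.45 for Dnase1l3, a secreted nuclease that degrades DNA in blood. Dnase1l3 stood at 40.3 and 47.6 CPM in DBA/2J and 36.8 and 27.4 CPM in C57BL/6J. Its libraries did not overlap, but it did not pass the test (edgeR adjusted p = 0.113). Without C57BL/6J replicate 1, Dnase1l3 was called higher (log2 0.68, edgeR adjusted p = 0.00556). Fcgr2b, the inhibitory IgG receptor that also clears immune complexes in the sinusoid, showed a log2 difference of 0.0036 and an adjusted p of 0.990. Its C57BL/6J libraries, 36.2 and 27.7 CPM, enclosed both DBA/2J libraries, 28.7 and 35.3 CPM. Mrc1, the mannose receptor, Ehd3, a membrane-trafficking protein, and Oit3, a secreted protein of the sinusoid, stood at 0.23, 0.17 and 0.23, with edgeR adjusted p values of 0.388, 0.444 and 0.518.

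Among 10 genes for growth factor receptors and their partners, Tie1 was higher, Nrp1 lower and 8 were not called. Tie1 encodes an orphan receptor that modulates the angiopoietin receptor Tie2, the product of Tek. Tie1 (chromosome 4, 118471191 to 118490061, reverse strand) stood at 27.4 and 28.2 CPM in DBA/2J and 16.6 and 14.2 CPM in C57BL/6J. The gap between the strains was wider than the distance between replicates in either strain. The log2 difference was 0.85 ± 0.11 (SE), 1.80-fold, with an edgeR adjusted p of 0.00869, the lowest of the 32 genes. Tek itself stood at 7.84 and 8.64 CPM in DBA/2J and 7.20 and 7.11 CPM in C57BL/6J (log2 0.20, edgeR adjusted p = 0.348). Ptprb, the phosphatase that damps Tie2 signalling, stood at 46.6 and 56.1 CPM against 46.0 and 38.8 CPM (log2 0.28, edgeR adjusted p = 0.197).

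Nrp1 encodes neuropilin-1, a co-receptor for VEGF and semaphorins. Nrp1 (chromosome 8, 128358604 to 128503363, forward strand) stood at 49.0 and 52.9 CPM in DBA/2J and 67.9 and 75.7 CPM in C57BL/6J. Both C57BL/6J livers were above both DBA/2J livers. The log2 difference was -0.49 ± 0.09 (SE), 1.41-fold lower in DBA/2J, with an edgeR adjusted p of 0.0218. Nrp1 lost its call when low-count genes were kept (edgeR adjusted p = 0.0659).

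The 3 VEGF receptor genes did not pass the test. Kdr, which encodes the main signalling receptor for VEGF-A, stood at 28.1 and 37.1 CPM in DBA/2J and 28.6 and 24.2 CPM in C57BL/6J (log2 0.30, edgeR adjusted p = 0.237). Flt1 and Flt4 had log2 values of 0.33 and 0.16. In each of the 3, DBA/2J replicate 2 was the highest library and C57BL/6J replicate 2 the lowest. Eng, a co-receptor for TGF-beta family ligands, did not overlap between strains, at 55.0 and 64.4 CPM against 52.7 and 45.3 CPM, but missed the threshold (log2 0.29, edgeR adjusted p = 0.152). Without C57BL/6J replicate 1, Eng and Ptprb were called higher (edgeR adjusted p = 0.0389 and 0.0468). Gpr182, an atypical chemokine receptor, had a log2 value of -0.07. Ramp2, the partner of the adrenomedullin receptor, had -0.40 (edgeR adjusted p = 0.325), and was called lower without C57BL/6J replicate 2 (log2 -0.68, edgeR adjusted p = 0.0352). Ramp2 shares 33.4% of its exon bases with Vps25, which makes its count uncertain.

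Of 6 genes for secreted signals, Wnt9b was higher and 5 were not called. Wnt9b (chromosome 11, 103727364 to 103749821, reverse strand) is a Wnt ligand of the central vein and nearby sinusoids. Its counts were low: 138 and 140 reads in DBA/2J and 47 and 71 in C57BL/6J, or 2.86 and 2.53 CPM against 0.964 and 1.42 CPM. The C57BL/6J livers differed from each other by more than the DBA/2J livers did, and both lay below them. The log2 difference was 1.17 ± 0.28 (SE), 2.25-fold, with an edgeR adjusted p of 0.0405. Wnt9b lost its call when low-count genes were kept (edgeR adjusted p = 0.0664). Wnt2, the other Wnt ligand of these cells, had 64 and 129 reads in DBA/2J and 88 and 68 in C57BL/6J, with overlapping strains (log2 0.22, edgeR adjusted p = 0.701).

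Rspo3, which amplifies Wnt signals, stood at 2.94 and 3.11 CPM in DBA/2J and 2.71 and 1.92 CPM in C57BL/6J (log2 0.39, edgeR adjusted p = 0.316). Bmp2 stood at 8.04 and 12.5 CPM against 8.29 and 6.37 CPM (log2 0.49, edgeR adjusted p = 0.228). Bmp6 stood at 2.03 and 2.73 CPM against 1.97 and 1.52 CPM (log2 0.45, edgeR adjusted p = 0.296). The strains did not overlap for Rspo3 and Bmp6 and overlapped for Bmp2, and none of the 3 passed the test. Per kilobase, Bmp2 was above Bmp6 in each library, by 2.68 and 3.12 times in DBA/2J and 2.85 and 2.84 times in C57BL/6J. Egfl7, a secreted endothelial protein whose gene hosts miR-126, differed between the C57BL/6J livers, at 23.8 and 13.3 CPM, with 17.4 and 16.5 CPM in DBA/2J between them. Without C57BL/6J replicate 2, Egfl7 was called lower (log2 -0.49, edgeR adjusted p = 0.0107). Exon bases shared with other symbols make up 12.8% of Egfl7 and 13.1% of Rspo3, so both counts are less certain.

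Of 7 genes for junctions, cell surface and identity, 0 passed the edgeR test, 0 had an unadjusted p under 0.05 and 0 were called by DESeq2. Their log2 values ran from 0.08 for Pecam1 and Gata4 to 0.38 for Cldn5. Pecam1 encodes CD31 and Cdh5 encodes VE-cadherin, adhesion proteins of endothelial junctions, and Cldn5 is a tight junction protein. Cdh5 stood at 14.4 and 18.3 CPM in DBA/2J and 15.0 and 13.4 CPM in C57BL/6J. Gata4, the transcription factor gene needed for the sinusoidal type of endothelium, varied least of the 7 over the libraries, at 15.9, 15.1, 14.2 and 15.1 CPM. Plvap, which encodes the protein of diaphragms in endothelial openings, stood at 32.5 and 32.8 CPM in DBA/2J and 32.8 and 21.1 CPM in C57BL/6J. Only C57BL/6J replicate 2 stood apart there, and without C57BL/6J replicate 1 Plvap and Cldn5 were called higher (edgeR adjusted p = 0.00331 and 0.0322). Emcn, the endothelial sialomucin gene, and Aqp1, the water channel gene, had log2 values of 0.18 and 0.24.

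None of the 5 calls held when either DBA/2J mouse was omitted. EdgeR then called 0 of the 32 genes, and 6 (without replicate 1) and 4 (without replicate 2) had an unadjusted p under 0.05. The share called among all genes fell to 1.79% and 1.92% in those fits. The strains did not overlap for these 5 genes, so their direction could not turn on omitting 1 library. With each library left out, log2 values ran from -1.30 to -1.02 for Lyve1 and -0.575 to -0.41 for Nrp1. For the higher genes they ran from 0.30 to 0.49 (Stab2), 0.74 to 0.96 (Tie1) and 0.91 to 1.48 (Wnt9b). Without C57BL/6J replicate 1, 8 of the 32 genes were higher and 2 lower, and without C57BL/6J replicate 2, 3 were higher and 4 lower. The share called among all genes was then 24.2% and 29.9%.

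Per kilobase of exon, Aqp1 was the most abundant of the 32 genes, with a mean over the libraries of 20.9 CPM per kilobase, followed by Plvap (15.0), Eng (13.4) and Clec4g (10.6). The lowest were Wnt9b (0.430) and Emcn (0.248). Along this order, 3 of 31 neighbouring pairs did not overlap over the 4 libraries: Aqp1 above Plvap, Pecam1 above Tek and Flt1 above Wnt9b. In 5 further pairs the ranges overlapped, but the first gene was higher within each of the 4 libraries: Eng above Clec4g, Ehd3 above Dnase1l3, Ptprb above Kdr, Kdr above Bmp2 and Bmp6 above Wnt2. The remaining neighbours changed places in at least 1 library. Exon length here counts all annotated exons of a symbol.

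Most of the 32 genes moved together between mice of 1 strain. DBA/2J replicate 2 was above DBA/2J replicate 1 for 29 of 32 genes, with a median log2 ratio of 0.28, against 51% of all genes and a median of 0.0049. C57BL/6J replicate 1 was above C57BL/6J replicate 2 for 28 of 32 genes, with a median of 0.315, against 48.5% of all genes and a median of -0.01. The exceptions were Egfl7, Gata4 and Wnt9b in DBA/2J, and Ehd3, Gata4, Nrp1 and Wnt9b in C57BL/6J. The summed level of the 32 genes was 690 and 825 CPM in DBA/2J and 736 and 617 CPM in C57BL/6J, so the strains overlapped. The plot of gene lists by library shows DBA/2J replicate 2 highest and C57BL/6J replicate 2 lowest also for other sinusoidal genes, for genes shared by endothelia and for stellate cell genes. In large-vessel genes C57BL/6J replicate 1 was the highest instead.

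**Figure D3:**
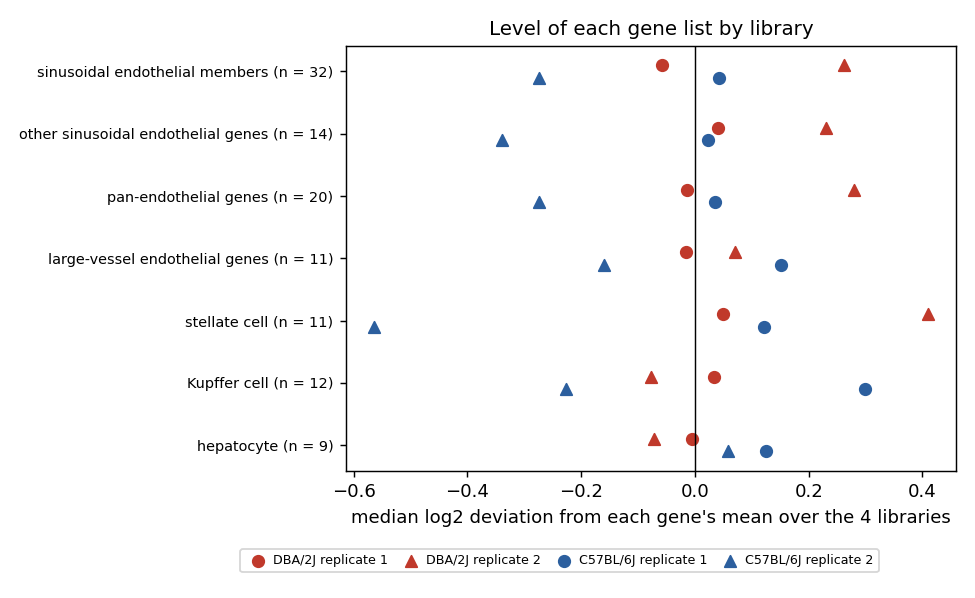
Median log2 deviation of each gene list from the genes' means over the 4 libraries. Each point is 1 library; red is DBA/2J, blue C57BL/6J, circles replicate 1 and triangles replicate 2. For the 32 sinusoidal genes the values are -0.06 and 0.26 in DBA/2J and 0.04 and -0.27 in C57BL/6J.

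Each gene was therefore also expressed relative to the summed CPM of the other 31. On this scale Lyve1 was 3.28 and 3.17 per 1000 in DBA/2J and 8.21 and 8.05 per 1000 in C57BL/6J. The replicates of Lyve1 lay closer together than on the CPM scale, and the strains stayed apart. Nrp1 was 76.5 and 68.6 per 1000 against 102 and 139.9, and Tie1 was 41.3 and 35.3 per 1000 against 23.1 and 23.6. Stab2, at 83.6 and 69.1 per 1000 against 62.4 and 65.1, came close to overlapping. Wnt9b was 4.16 and 3.08 per 1000 against 1.31 and 2.31. In proportion, the DBA/2J replicates of Nrp1, Tie1, Stab2 and Wnt9b lay further apart than on the CPM scale. In C57BL/6J this also held for Nrp1 and Wnt9b, whereas the replicates of Tie1 and Stab2 lay closer together. Over the list, 12 genes had both DBA/2J libraries above on this scale and 6 had them below, 18 of 32 in all. Of all genes tested, 51.1% did not overlap when divided by the summed level of the 32, 16.1% with DBA/2J above and 35% below. The 32 genes were divided by the other 31, with which most of them moved, so these shares and those of the list are not like for like. Clec4g, Fcgr2b, Gpr182 and Ramp2 were below together with Lyve1 and Nrp1.

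**Figure D4:**
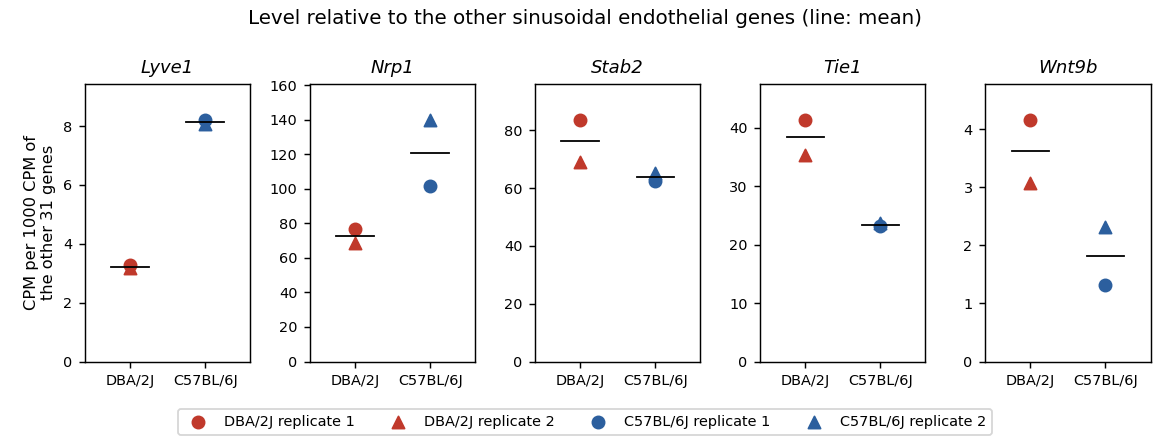
CPM of the 5 called genes per 1000 CPM of the other 31 sinusoidal endothelial genes, by strain. Each point is 1 library (circles replicate 1, triangles replicate 2) and each line the mean of 2 libraries; axes start at 0. Lyve1 is 3.28 and 3.17 in DBA/2J and 8.21 and 8.05 in C57BL/6J.

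Ratios between 8 pairs of genes, chosen after their values were seen, were computed per kilobase of exon and are given as a description. An exact permutation test of 2 libraries against 2 cannot give a p below 0.333, so it could not call any pair. Tie1 was 3.35 and 3.12 times Tek in DBA/2J and 2.21 and 1.92 times in C57BL/6J. Lyve1 was 0.127 and 0.146 times Stab2 in DBA/2J and 0.416 and 0.392 times in C57BL/6J. Nrp1 was 1.61 and 1.32 times Kdr in DBA/2J and 2.19 and 2.88 times in C57BL/6J, again without overlap. The ratio of Kdr to Flt1 stayed between 4.15 and 4.55 in the 4 libraries, and overlapped between the strains. Stab2 was 1.41 and 1.01 times Stab1 in DBA/2J and 0.951 and 1.09 times in C57BL/6J. Kdr was 1.69 and 1.44 times Flt4 in DBA/2J and 1.30 and 1.52 times in C57BL/6J. Both ratios overlapped between the strains, as did that of Bmp2 to Bmp6 given above. Wnt9b was 1.08 and 0.542 times Wnt2 in DBA/2J and 0.267 and 0.521 times in C57BL/6J, which separated the strains by a narrow margin.

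Genes that act with these receptors were read from lists that, like the members, were drawn up with earlier results of these data known. Of 12 tested ligands and partners of the VEGF, angiopoietin and Notch systems, 3 were higher in DBA/2J and 0 lower. That is 25% of the list, against 18.2% of all genes tested. Nrp2, the second neuropilin, was higher (log2 0.75, edgeR adjusted p = 0.0267). So were the Notch receptor genes Notch4 (0.97, edgeR adjusted p = 0.0406) and Notch1 (0.74, edgeR adjusted p = 0.0493). Nrp2 thus stood in the opposite direction to Nrp1, at 695 and 1028 reads in DBA/2J and 473 and 492 in C57BL/6J. Vegfa, the ligand made mainly by hepatocytes in liver, stood at -0.29 (edgeR adjusted p = 0.21). Angptl4 stood at 125 and 112 CPM in DBA/2J and 138 and 255 CPM in C57BL/6J (log2 -0.73, edgeR adjusted p = 0.123). Under DESeq2, 4 genes of this list were called higher and 1 lower. The strains did not overlap for 8 of the 12 genes (66.7%, against 63.8% of all genes tested), 5 with DBA/2J above and 3 below. The angiopoietin genes Angpt1 and Angpt2 had at most 64 reads in a library and log2 values of -0.51 and 0.47, neither called.

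Of 20 further genes shared by endothelia, 3 were higher in DBA/2J and 0 lower, with a median log2 of 0.24. The 3 are 15% of the list, against 18.2% of all genes tested. S1pr1, a sphingosine-1-phosphate receptor, stood at 3680 and 3951 reads in DBA/2J and 1921 and 2160 in C57BL/6J (log2 0.84, edgeR adjusted p = 0.00424). Ece1, the endothelin-converting enzyme, had a log2 value of 0.67 (edgeR adjusted p = 0.0136). It stood at 357 and 335 CPM in DBA/2J and 201 and 235 CPM in C57BL/6J, above every gene of the sinusoidal list. S1pr1 and Ece1 had DBA/2J replicate 1 above replicate 2 and C57BL/6J replicate 2 above replicate 1. In this list, 18 of 20 genes had DBA/2J replicate 2 above replicate 1, and 16 had C57BL/6J replicate 1 above replicate 2. The part of other cells in these values was not tested. Calcrl, the receptor that pairs with Ramp2, had 0.79 (edgeR adjusted p = 0.0291), whereas Ramp2 stood at -0.40. Of 14 other tested genes known from sinusoidal cells, 1 was higher and 0 lower (7.14% called). This was Maf, a transcription factor gene of the sinusoidal programme (log2 0.69, edgeR adjusted p = 0.0104), while F8, the gene of coagulation factor VIII, stood at 0.21. On omitting C57BL/6J replicate 1, 6 of the genes shared by endothelia and 4 of the other sinusoidal genes were called higher, and DESeq2 called 6 of the former higher. These 7 genes, Nrp2, Notch1, Notch4, S1pr1, Ece1, Calcrl and Maf, also lost their calls when either DBA/2J mouse was omitted. Nrp2, Notch1, Notch4 and Calcrl lost them as well when low-count genes were kept (edgeR adjusted p = 0.0651, 0.116, 0.0773 and 0.0662), and Notch1 with relative log expression scaling (0.0501). With the exon-length trend removed, Nrp2, Notch1 and Notch4 had adjusted p values of 0.059, 0.121 and 0.0603.

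RNA levels in whole liver were read for Bmp receptors and target genes beside the ligands. Bmp signalling itself was not measured. Of 14 receptors and transducers, 2 were higher and 0 lower, 14.3% called against 18.2% of all genes tested. They were Acvr2a, a type II receptor (log2 0.56, edgeR adjusted p = 0.0133), and Neo1, a hemojuvelin partner (0.67, adjusted p = 0.0167). Of 9 target genes, 2 were lower and 0 higher (22.2% called). Hamp, which encodes hepcidin, had 2175 and 3912 reads in DBA/2J and 18786 and 11375 in C57BL/6J (log2 -2.40, edgeR adjusted p = 0.00835). Id1, an inhibitor of DNA binding induced by Bmp signals, had 104 and 91 reads against 291 and 309 (log2 -1.68, edgeR adjusted p = 0.00708). The other 7 targets were not called and ran from -1.51 for Id3 to 1.38 for Id4, with Smad6, Smad7 and Atoh8 at 0.21, 0.01 and 0.30. Id3 had 1811 and 1759 reads in DBA/2J and 7364 and 2328 in C57BL/6J, so that the strains did not overlap (edgeR adjusted p = 0.0966). Id4 had 5 to 36 reads per library (edgeR adjusted p = 0.188). Of the targets, 3 were lower and 0 higher without C57BL/6J replicate 1, and 4 were lower and 1 higher without C57BL/6J replicate 2. The ligand genes Bmp2 and Bmp6, at log2 values of 0.49 and 0.45, were opposite in sign to Hamp and Id1 and did not pass the test.

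On the Wnt side, 2 of 15 receptors and regulators were higher and 0 lower (13.3% called, against 18.2% of all genes tested). These were Lrp5, a Wnt co-receptor (log2 0.69, edgeR adjusted p = 0.0438), and Ctnnb1, which encodes beta-catenin (0.32, adjusted p = 0.0449). Of 12 target genes, 2 were lower and 0 higher (16.7% called). They were Glul, the glutamine synthetase gene of hepatocytes at the central vein (log2 -0.46, edgeR adjusted p = 0.0332), and Oat (-0.96, adjusted p = 0.0367). Axin2, a feedback target of the pathway, had 439 and 428 reads in DBA/2J and 393 and 457 in C57BL/6J (log2 -0.03, edgeR adjusted p = 0.898). The calls for Acvr2a, Neo1, Hamp, Id1, Lrp5, Ctnnb1, Glul and Oat were lost on omitting either DBA/2J mouse. Lrp5, Ctnnb1 and Oat also lost them when low-count genes were kept (edgeR adjusted p = 0.11, 0.0875 and 0.0855) and with the exon-length trend removed (0.0898, 0.0791 and 0.0539). Ctnnb1 further lost its call with relative log expression scaling (0.0514), in the older edgeR form (0.0557) and without C57BL/6J replicate 1 (0.0598). The Wnt receptors and regulators called higher were 4 under library totals, 4 under DESeq2 and 9 without C57BL/6J replicate 2. The Wnt targets called lower were 5 without C57BL/6J replicate 1. The plot of ligands, receptors and targets places these values beside those of Wnt9b.

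**Figure D5:**
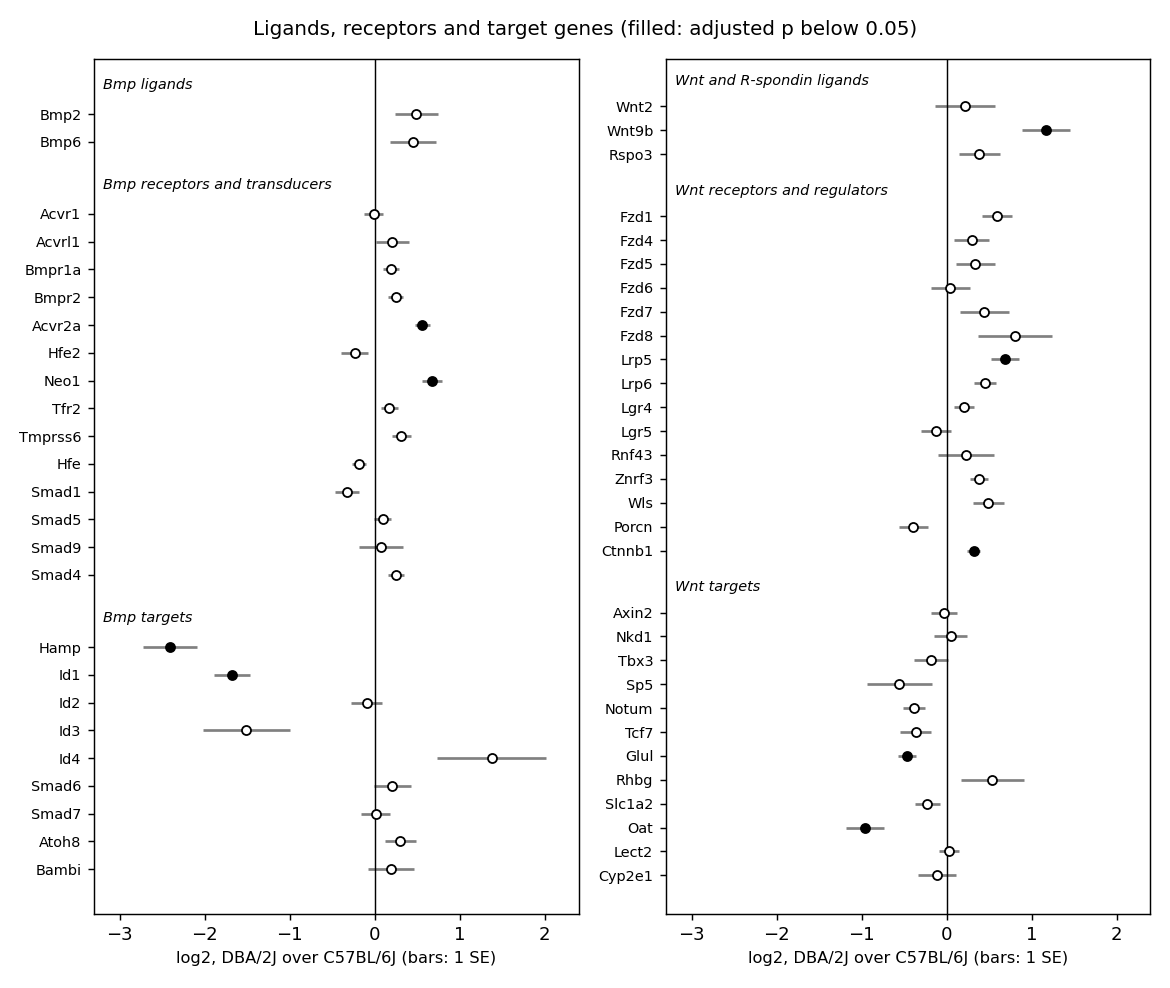
Log2 difference of DBA/2J over C57BL/6J for Bmp (left) and Wnt (right) ligands, receptors and target genes, with bars of 1 standard error from edgeR; n = 2 libraries per strain. Filled points passed an adjusted p of 0.05: Acvr2a, Neo1, Hamp and Id1 on the left, and Wnt9b, Lrp5, Ctnnb1, Glul and Oat on the right.

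Markers of other liver cells were read beside the endothelial genes. Of 11 stellate cell markers, Reln was higher (log2 1.30, edgeR adjusted p = 0.00453) and 0 lower, 9.09% called against 18.2% of all genes tested. All 11 log2 values were positive, and their median was 0.58. Their summed level was 366 and 447 CPM in DBA/2J and 340 and 229 CPM in C57BL/6J, and C57BL/6J replicate 1 was above replicate 2 for all 11. DESeq2 called 3 of these 11 markers higher, and more were called higher by edgeR without C57BL/6J replicate 1. That fit leaves only C57BL/6J replicate 2, the lowest library for these markers and for the 32 sinusoidal endothelial genes. Its median log2 deviation from the genes' means was -0.56 for the stellate cell markers and -0.27 for the sinusoidal genes. Of 12 Kupffer cell markers, Marco and Folr2 were lower (log2 -2.97 and -2.13, edgeR adjusted p = 0.0238 and 0.0222), 16.7% called. Marco had 24 and 43 reads in DBA/2J and 365 and 133 in C57BL/6J, so the C57BL/6J livers differed widely. Folr2 had only 6 and 8 reads in DBA/2J and 28 and 31 in C57BL/6J. The Kupffer lectin gene Clec4f stood at 0.0042, and the summed level of the list overlapped, at 223 and 220 CPM against 260 and 191 CPM. Reln, Marco and Folr2 were not called when either DBA/2J mouse was omitted, nor Marco and Folr2 when low-count genes were kept (edgeR adjusted p = 0.0676 and 0.0531). The Kupffer cell markers called lower were 4 without C57BL/6J replicate 2. The part of these markers in the endothelial values was not tested.

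The sparser cell types were at low levels. Summed markers reached 24.1 and 24.7 CPM in DBA/2J and 76.8 and 49.95 CPM in C57BL/6J for bile duct cells, mostly Spp1, which was lower in DBA/2J (log2 -1.86, edgeR adjusted p = 0.00474, not called when either DBA/2J mouse was omitted). They were 1.04 to 2.09 CPM per library for lymphocytes, and 4.75, 3.81, 0.39 and 4.77 CPM for the mesothelium that covers the liver. C57BL/6J replicate 1 was low in mesothelial markers, with Upk1b at 0 reads, and high in the neutrophil markers S100a8 and S100a9, at a summed 5.03 CPM against 0.253 to 0.456 CPM in the others. With all 4 libraries, none of these lymphocyte, mesothelial and neutrophil markers was called by edgeR. DESeq2 called 1 of the 2 tested neutrophil markers and 0 of the lymphocyte and mesothelial markers. When C57BL/6J replicate 2 was omitted, 3 mesothelial markers were called higher and 3 neutrophil markers lower, and 2 bile duct markers were lower. The part of these cells in the endothelial values was not tested. Hepatocyte markers summed to 91224 to 102314 CPM per library. Of 9 tested hepatocyte genes, 0 were called by edgeR, 0 had an unadjusted p under 0.05 and 2 were called by DESeq2.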

How the data were processed

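Poly(A) RNA of 4 mouse livers was counted. The authors deposited raw read counts for each gene symbol. Per the file headers these were made with featureCounts 2.0.1 on exons of Ensembl release 88 (GRCm38). The submitters' processing notes name STAR 2.4.0g1 and featureCounts 1.5.2. The header sets the option for read pairs although sequencing was single-end per the labels' protocols. It sets no strand option, so antisense overlaps cannot be told apart. Of the 32 genes, 10 share exon bases with another symbol, 3 of them more than 10%. Reads of both strains were counted against a C57BL/6J-derived genome.

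Counts were fitted here over all genes with edgeR 4.0.16 under R 4.3.3 (quasi-likelihood F test, TMM scaling, filterByExpr with a minimum count of 10, strain as sole term); Benjamini-Hochberg adjustment ran over 15647 genes. The F statistic gave the standard errors. CPM values use TMM-scaled library sizes, and CPM per kilobase divides by exon length. Promoters are RefSeq's.

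Members and lists were chosen with earlier results of these data known. Named were all 32 members, the called genes of each partner list, and further genes chosen after their values were seen. Alternatives were other scalings, no filter, DESeq2 1.42.0, the older edgeR form, an exon-length offset (lowess, span 0.3), a replicate block and each library left out.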

Additional observations from a re-analysis of the deposited data

How the results depend on the processing

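The counts of 3 higher and 2 lower genes held under relative log expression scaling, library totals, DESeq2 and the older edgeR form. Scaling by library totals shifted the median of all genes by 0.0811. With no filter on low counts, 1 was higher (Tie1) and 1 lower (Lyve1), and 1516 of all genes were called. With the exon-length offset, 2 were higher and 2 lower. With each library left out, the higher genes ranged from 0 to 8, the lower genes from 0 to 4 and calls over all genes from 292 to 4904. The labels do not say that replicate numbers pair the mice, and same-numbered deviations correlated at -0.02 over 12223 genes. With the number as a replicate block, 1 was higher (Tie1), 2 lower and 2396 of all genes called; Stab2 and Wnt9b then had edgeR adjusted p values of 0.0542 and 0.0582, and Notch4, Vwf, Ctnnb1 and Glul 0.0562, 0.0523, 0.0787 and 0.0543. The median of the list stayed between 0.17 and 0.31 under the settings that keep all libraries.

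Some genes that were not called changed sign. Fcgr2b was -0.0027 under relative log expression scaling and under DESeq2, and -0.058 with the exon-length offset; Gpr182 was 0.019 under library totals. With each library left out, log2 values ranged from -0.089 to 0.39 for Stab1, -0.36 to 0.14 for Clec4g, -0.11 to 0.24 for Pecam1, -0.0904 to 0.47 for Oit3, -0.18 to 0.21 for Fcgr2b, -0.27 to 0.089 for Gpr182, -0.19 to 0.42 for Flt4, -0.043 to 0.33 for Ehd3, -0.49 to 0.35 for Egfl7, -0.11 to 0.53 for Emcn, -0.26 to 0.54 for Wnt2 and -0.0078 to 0.63 for Plvap. The cause was not tested. With 2 libraries per strain, and low counts for Wnt9b, Wnt2, Bmp6 and Emcn, small differences were not detectable.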

Other observations

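Endothelial genes of larger vessels and of the central and portal ends of the sinusoid were read as further lists. Of 11 tested large-vessel genes, Vwf, which encodes von Willebrand factor, was higher in DBA/2J (log2 0.72, edgeR adjusted p = 0.0369) and 0 were lower. That is 9.09% of the list, against 18.2% of all genes tested. Vwf was not called when either DBA/2J mouse was omitted, when low-count genes were kept (0.0739) or with the exon-length trend removed (0.102). The median log2 of the list was -0.0096. The list had 3 higher genes under library totals, 2 under DESeq2, and 2 higher and 3 lower without C57BL/6J replicate 2. The progenitor and vascular marker Cd34 stood at 0.85 (edgeR adjusted p = 0.0509), and the adhesion gene Selp at -0.95 (adjusted p = 0.0594), with both C57BL/6J libraries above both DBA/2J libraries for Selp. Of 6 genes known from the central vein side and 7 from the portal side, edgeR called 0 in each, with medians of 0.06 in both lists. At an unadjusted p under 0.05 there were 2 and 1, and DESeq2 called 0 in each. Without C57BL/6J replicate 2, 1 central vein gene was lower and 1 portal gene higher, and without C57BL/6J replicate 1, 1 portal gene was higher. Selp stands in both the large-vessel and the central vein list, and Efnb2 in both the large-vessel and the portal list.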
